A study of Homo sapiens with 9 samples.

Results

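The transcriptome of palmitic acid-loaded cells given curcumin together with copper was compared with that of cells given palmitic acid alone, gene by gene. Levels are TPM, a unit of transcript abundance scaled for gene length and library total. A mean of 1 TPM or more over the 9 libraries of the table was required, which 13443 of 62703 genes met, and 6 of the 9 libraries carry the comparison. All cells are labelled HepG2, a human hepatocellular carcinoma line, and all were loaded for 24 h with the saturated fatty acid palmitic acid at 750 µM. The 3 libraries of the reference group had palmitic acid alone. The 3 libraries of the treated group came from cells then given 20 µM curcumin, the yellow polyphenol of turmeric, with 5 µM CuCl2 for 12 h. A further 3 libraries, from cells given 20 µM curcumin without copper for 12 h, are set beside them for some genes. The labels give no cells without palmitic acid, no vehicle, no group with CuCl2 alone and no further 12 h for the reference group, so the effects of curcumin, of CuCl2 and of those 12 h cannot be told apart in this comparison.

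Oxidants and electrophiles such as curcumin modify KEAP1, the adaptor that otherwise sends the transcription factor NRF2 to the proteasome, and stabilised NRF2 then acts on antioxidant response elements of genes for heme breakdown, glutathione synthesis and NADPH supply. Excess zinc, cadmium or copper leads to activation of MTF1, which binds metal response elements and induces metallothioneins, small cysteine-rich proteins that bind metals. Palmitic acid is known to provoke endoplasmic reticulum stress and NF-kB-driven cytokines in liver cells. Interferon-stimulated genes are driven by factors that include IRF9. Lists of genes for these and other processes were described by how many members passed the test. The lists share members, so the same call can be counted in several of them.

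The libraries were checked before any gene was described. The number of genes at 1 TPM or more per library ranged from 13208 to 13737, and mitochondrial DNA genes held 10.1% to 13% of the TPM. On the first principal component of the 9 libraries (28% of the variance), palmitic acid replicate 3 stood at 25.9 while replicates 1 and 2 stood at -31.3 and -19.2, and the treated libraries lay between 15.5 and -6.5. The curcumin libraries were also split on it, at 15.5, -18.9 and 16. On the second (18.8%), the palmitic acid libraries stood at 18.3, 16.2 and 26.5. The treated libraries lay there between -14.8 and -7.59 and the curcumin libraries between -20.7 and -3.11. Palmitic acid replicate 3 also had the lowest mitochondrial share, 10.1% against 13% and 12.5%. Counts obtained without this library are given beside many of the lists below. Markers of the labelled cell type were nearly absent. Of 23 hepatocyte markers, 22 averaged under 1 TPM and ALB, APOA2, APOB, APOC3, FGB and TTR were listed at 0 in all 9 libraries, so the cells are called only by their label. Of the other marker lists, 8 of 11 leukocyte, 8 of 9 endothelial, 7 of 10 fibroblast and 3 of 6 epithelial markers averaged under 1 TPM. The 3 epithelial ones were CDH1, EPCAM and KRT19. The whole leukocyte list summed to 9.52 to 12.3 TPM with palmitic acid alone and 9.02 to 10.5 TPM with curcumin and CuCl2. The fibroblast list summed to 17.1 to 21.1 and 15.2 to 19.7 TPM in the same order. Of its 3 members tested, FAP passed as lower with curcumin and CuCl2 in the test described below, and none passed as higher.

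With curcumin and CuCl2, 194 of the 13443 genes passed the test (limma on log2(TPM + 1), Benjamini-Hochberg adjusted p under 0.05), which is 1.44% of the genes tested. Of these, 73 (0.543%) rose and 121 (0.900%) fell, and each list count below stands against these shares. A change of at least 2-fold on the log2(TPM + 1) scale was reached by 36 of them (0.268%), 12 upward (0.0893%) and 24 downward (0.179%). The rises were led by HMOX1, by the metallothionein MT1X, and by ANGPTL4 and PLIN4 of lipid handling. The falls were led by SYNC, PLAAT2 and MYO7B, by interferon-stimulated genes and by IL6 and KRT17. The median log2 fold change of all genes tested was -0.03, and 43.8% of genes lay above 0 and 56.1% below. The 3 libraries of one group lay wholly above or below those of the other for 2553 genes (19.0%), 1165 (8.67%) higher with curcumin and CuCl2 and 1388 (10.3%) lower. An unadjusted p under 0.05 was found for 1821 genes (13.5%) in either direction, the share beside which the unadjusted counts of the lists stand. A filter by the mean over 9 libraries has no sharp biological meaning at its edge: TRPM4 and RAB4B-EGLN2 were just inside it at 1 TPM, and HOGA1 and EOLA1-DT just outside at 0.9989 and 0.9978 TPM.

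**Figure D1:**
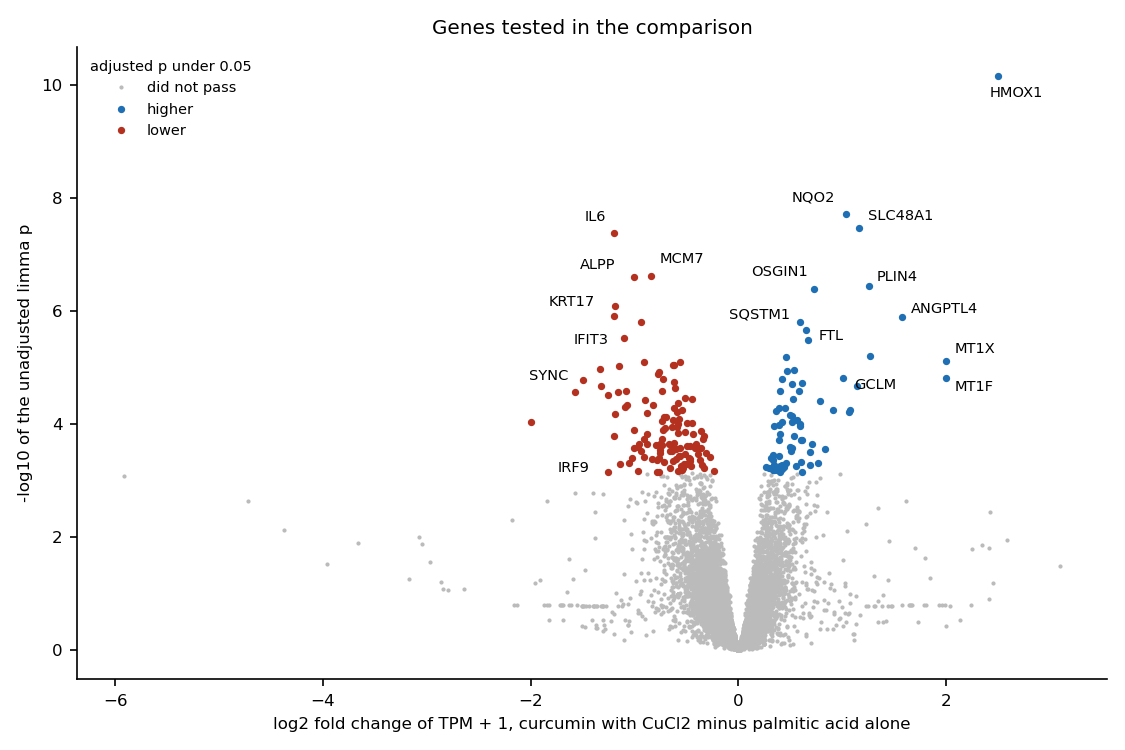
Log2 fold change of TPM + 1 (x axis, curcumin with CuCl2 minus palmitic acid alone) against -log10 of the unadjusted limma p (y axis) for 13443 genes, with 73 genes that rose in blue, 121 that fell in red and the others in grey. HMOX1 stands alone at the upper right with a log2 fold change of 2.50, and IL6, MCM7 and ALPP are the highest points on the left.

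How far these calls depend on single libraries bears on every list below. Of the 194 genes, 38 passed in every one of the 20 alternatives that tested them (18 that rose and 20 that fell). None of the 194 changed sign in any alternative. The genes were selected in these same libraries, so a kept sign is not independent support. Leaving out palmitic acid replicate 1, 2 or 3 left 101, 73 and 527 passing genes, and leaving out treated replicate 1, 2 or 3 left 46, 57 and 46. Leaving out replicate 1, 2 or 3 of the curcumin group, which only lends its spread to the fit, left 115, 168 and 117. The 38 genes include HMOX1, SLC48A1, GCLM, NQO2, OSGIN1, PIR, FTL, SQSTM1, MT1X, ANGPTL4 and PLIN4 among those that rose, and IL6, IL32, KRT17, IFIT1, IFIT3, OASL, MCM7, JUND, SYNC, PLAAT2 and NEURL1 among those that fell.

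Of the 35 gene lists, that of NRF2 targets had the most members that rose. All 42 listed genes were expressed above the filter, 19 rose and none fell, against 0.543% of all genes rising, and 31 had a positive difference at an unadjusted p under 0.05. The list's median log2 fold change was 0.39 against -0.03 for all genes, and 41 of the 42 values were positive. The libraries did not overlap for 32 of the 42, all higher with curcumin and CuCl2, as for 8.67% of all genes. The number that rose depended on the libraries: 16, 9 and 23 without palmitic acid replicate 1, 2 or 3, 8, 8 and 7 without treated replicate 1, 2 or 3, and 8 when only the 6 libraries compared were fitted. The list's median stayed between 0.36 and 0.44 in all 20 alternatives.

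HMOX1, which encodes heme oxygenase 1, the enzyme that opens heme to biliverdin, carbon monoxide and iron, had the smallest p and, on the log2(TPM + 1) scale, the largest rise of all genes that passed (chromosome 22, 35380361 to 35394214, plus strand, GRCh38). Its level was 143, 114 and 129.8 TPM in the reference libraries and 732, 719 and 742 TPM in those with curcumin and CuCl2. Every treated library was far above every reference library, a ratio of means of 5.67 and a log2 fold change of 2.50 ± 0.08 (SE, adjusted p = 9.39e-07). SLC48A1, the transporter that brings heme out of endosomes and lysosomes, stood at 17.8, 18.5 and 16.6 TPM against 40.7, 41.6 and 40 TPM, a log2 fold change of 1.17 ± 0.07 (adjusted p = 0.000143). The biliverdin reductase BLVRB rose from 197, 213 and 254 TPM to 339, 328 and 331 TPM, and the ferritin light chain FTL, part of the iron-storing shell, from 6692, 6365 and 7261 TPM to 10934, 10566 and 10820.2 TPM. The ferritin heavy chain FTH1 did not pass. Its reference libraries held 17548, 17321 and 27090.2 TPM and its treated libraries 25908, 19947 and 22166 TPM, with palmitic acid replicate 3 above all treated libraries. Ferritin genes have many processed pseudogenes, so the division of their reads is uncertain. Of 18 genes of heme and iron handling, 5 rose (HMOX1, SLC48A1, FTL, BLVRB and the porphyrin transporter ABCB6) and none fell, and 3 rose without palmitic acid replicate 2 or without any 1 treated library. All 5 are also counted among the NRF2 targets that rose. TFRC, the transferrin receptor, had a log2 fold change of -0.07 (95% confidence interval -0.56 to 0.42).

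Glutathione synthesis and the reduction of peroxides were represented next. GCLM, the modifier subunit of the ligase that makes the rate-limiting step of glutathione synthesis, went from 42.6, 37.7 and 31.3 TPM to 74.3, 77.2 and 74.7 TPM, with no overlap and a log2 fold change of 1.01 ± 0.13 (adjusted p = 0.00658). GCLC, the catalytic subunit of the same ligase, did not pass, at 38.7, 30.6 and 21.4 TPM and 31.6, 37.8 and 34.6 TPM, and its groups overlapped. SRXN1, which restores over-oxidised peroxiredoxins, rose by 0.78 ± 0.11 on the log2 scale (adjusted p = 0.0101), a call lost without treated replicate 2 or 3, where adjusted p reached 0.0673. PRDX1, a peroxiredoxin, rose from 1344, 1426 and 1485 TPM to 1917, 1842 and 1872 TPM, and the glutathione-using membrane enzymes MGST3 and MGST1 rose by 0.58 and 0.40. Of the 36 genes of glutathione and thioredoxin metabolism tested, 7 rose and 1 fell. Of these, GCLM, SRXN1, PRDX1 and MGST1 are also counted among the NRF2 targets that rose. The number that rose was 7, 5 and 11 without palmitic acid replicate 1, 2 or 3, 3, 4 and 1 without treated replicate 1, 2 or 3, and 4 with only the 6 libraries compared. CHAC1, one of the 7, degrades glutathione rather than making it, and went from 40.6, 39.8 and 37.2 TPM to 56.5, 55.9 and 56.5 TPM. The gene that fell, TXNIP, encodes an inhibitor of thioredoxin and went from 45.6, 51.6 and 35.1 TPM to 18.6, 21.3 and 20.9 TPM (log2 fold change -1.07 ± 0.15, adjusted p = 0.0113). The TXNIP call was lost without palmitic acid replicate 1 or 2 and without any 1 treated library (adjusted p up to 0.0762). TXNRD1, thioredoxin reductase, did not pass (390, 371 and 236 TPM against 370.3, 448 and 409 TPM).

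Quinone and carbonyl reductases, which remove reactive quinones and aldehydes, had 5 of 18 members that rose, against 0.543% of all genes, and none that fell. That count was 2 without palmitic acid replicate 2, without any 1 treated library or with only the 6 libraries compared, and 7 without palmitic acid replicate 3. NQO2 went from 97.7, 99.3 and 106 TPM to 216, 199.7 and 210 TPM, with a log2 fold change of 1.04 ± 0.06 (adjusted p = 0.00013). The related NQO1, often used as the marker gene of NRF2, moved less, from 414, 404 and 444 TPM to 569, 542 and 543 TPM (0.39 ± 0.06, adjusted p = 0.0121). The NQO1 call was kept in 13 of 20 alternatives, with adjusted p up to 0.0868. PIR, a quercetin-oxidising nuclear protein, AKR1C3 and AKR1B1, aldo-keto reductases, were the other 3 that rose. All of the 5 but NQO2 are also counted among the NRF2 targets that rose. Reads of AKR1C genes are shared among close paralogs. For NADPH supply, 2 of 14 genes rose, namely ME1, malic enzyme (0.61, adjusted p = 0.0488), and PGD of the pentose phosphate route (0.51, adjusted p = 0.0157). Both are also among the NRF2 targets counted above. None of the 14 passed without palmitic acid replicate 2, without any 1 treated library, with only the 6 libraries compared or with no variance trend, and 3 passed without palmitic acid replicate 3.

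OSGIN1, an oxidative stress-induced growth inhibitor, rose from 67.4, 65.5 and 66.5 TPM to 111, 110.1 and 109.9 TPM, with little spread within either group. SQSTM1, the autophagy receptor p62 that also binds KEAP1, rose from 2241, 2049 and 2022 TPM to 3130.4, 3209 and 3185 TPM (log2 fold change 0.59 ± 0.06, adjusted p = 0.00164). Of the 13 tested genes of the pathway's own regulators, none passed in limma's test, and 1 was higher and 1 lower at an unadjusted p under 0.05. NFE2L2, the gene of NRF2, was at 113, 108 and 75 TPM and 91.6, 94.2 and 91.4 TPM (95% confidence interval of the log2 fold change -0.40 to 0.25), and KEAP1 at 65, 64.6 and 70.9 TPM and 86.2, 80.5 and 77.8 TPM (adjusted p = 0.0949).

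The promoter of GCLM is shown for the antioxidant response element it holds, from RefSeq (GRCh38.p14, chr1:93909431-93909580, minus strand), written 5′ to 3′ up to the base before the transcription start with the match in capitals. The pattern searched was TGACNNNGC on both strands within 250 bases before the start, and the match begins 34 bases before it.
GCLM: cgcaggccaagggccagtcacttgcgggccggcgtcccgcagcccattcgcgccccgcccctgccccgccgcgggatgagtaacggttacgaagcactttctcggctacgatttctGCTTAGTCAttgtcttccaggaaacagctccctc
Of all 34943 promoters in the table, 10.9% held this pattern, and of the 30 NRF2-list members with an entry, 8 (26.7%) did in any of their promoters. The first share is per promoter and the second per gene. Some genes have several promoters, so the shares are not strictly comparable.

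**Figure D2:**
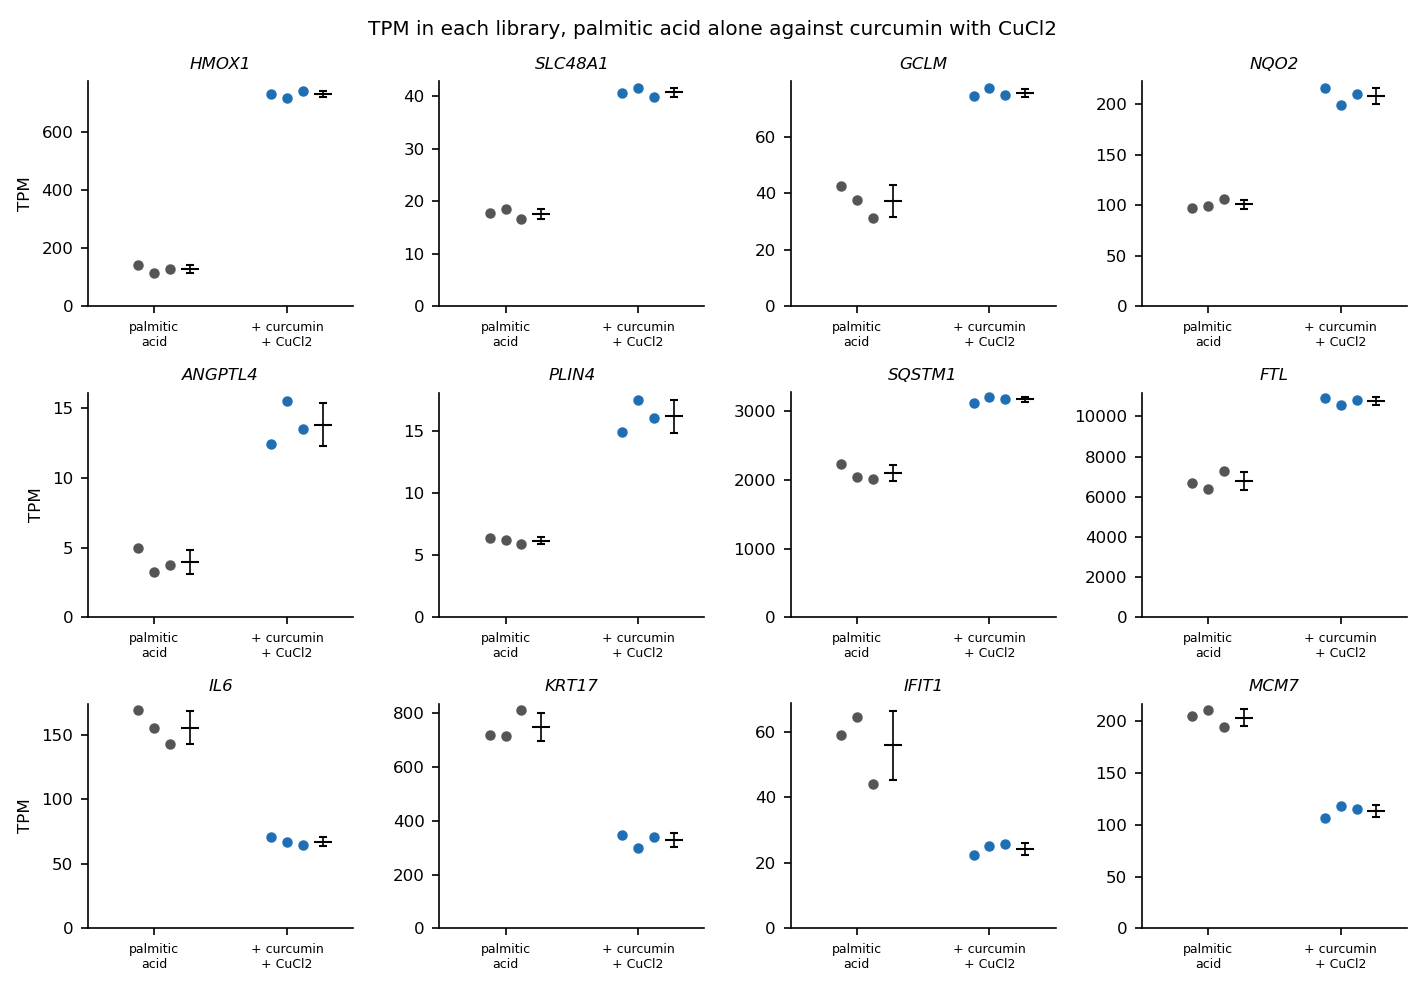
TPM (y axis, from 0) of 12 genes in each of the 3 libraries with palmitic acid alone (grey) and the 3 with curcumin and CuCl2 (blue), with the mean and SD at the side. The groups do not overlap in any panel. HMOX1, SLC48A1, GCLM, NQO2, ANGPTL4, PLIN4, SQSTM1 and FTL are higher and IL6, KRT17, IFIT1 and MCM7 lower with curcumin and CuCl2. This reflects the choice of genes, as all 12 passed in every alternative. Of all genes tested, 19.0% did not overlap.

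Metallothionein mRNAs were the other group of strong rises. MT1X (chromosome 16, 56682424 to 56684196, plus strand) was at 21.4, 33.1 and 42.7 TPM with palmitic acid alone and at 131, 133 and 121 TPM with curcumin and CuCl2. Its treated libraries were all above its reference libraries, a log2 fold change of 2.0 ± 0.23 (adjusted p = 0.00511). MT1E went from 24.2, 20.2 and 32 TPM to 53, 53.6 and 54 TPM (1.07 ± 0.16, adjusted p = 0.0126), and this call was lost without palmitic acid replicate 1 or without any 1 of the 3 treated libraries (adjusted p up to 0.0802). MT1F went from 0.53, 0.3 and 0.26 TPM to 5.71, 3.84 and 3.92 TPM (2.0 ± 0.25, adjusted p = 0.00658) and passed the filter only through its treated libraries. MT2A, the most abundant member, was at 800, 1057 and 1453 TPM and 1754, 1589 and 1640 TPM, again without overlap, but did not pass (adjusted p = 0.129). Of the 6 list members tested, 3 rose, including MT1F, whose entry into the test depended on the libraries where it was high. The count was 2 without palmitic acid replicate 1 or any 1 treated library and 4 without palmitic acid replicate 3. MT1G was under the filter, listed at 0 in all 3 reference and all 3 curcumin libraries and at 0.64, 0.77 and 1.0 TPM in the treated ones. MT1A, MT1M and MT3 were listed at 0 throughout. These genes are close paralogs in a cluster on chromosome 16, so the division of reads among them is uncertain.

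For MT1X, MT1E, MT1F and MT2A the curcumin libraries lay below the copper-containing ones, but none of these differences passed the test over all genes. With curcumin alone added, MT1X was at 27, 30.8 and 42.2 TPM, MT1E at 20.5, 21 and 26.5 TPM and MT1F at 0, 0.73 and 0 TPM, close to or below the levels with palmitic acid alone. The difference of curcumin with CuCl2 from curcumin was 1.94 for MT1X (95% confidence interval 1.42 to 2.45), 1.21 for MT1E (0.86 to 1.56) and 2.18 for MT1F (1.62 to 2.73) on the log2 scale, and 0.68 for MT2A (0.28 to 1.08). In the test over all genes these 3 had the smallest p-values of that contrast but missed the threshold, with adjusted p = 0.0692 for MT1X, 0.0692 for MT1F and 0.0947 for MT1E. No gene passed there in limma (0 of 13443, 0%), while 215 (1.60%) had an unadjusted p under 0.05, and no other tool was run. Over the alternatives the adjusted p of this contrast ranged from 0.0235 to 0.499 for MT1X, 0.0235 to 0.734 for MT1E and 0.00463 to 0.877 for MT1F. The adjusted p was under 0.05 in 3 of 20 alternatives for MT1X, 2 of 20 for MT1E and 2 of 19 for MT1F. Here too MT1F was tested only because of its levels in the libraries with CuCl2. HMOX1 gives the opposite picture, with 814, 776 and 760.2 TPM in the curcumin libraries and a difference of -0.10 (95% confidence interval -0.28 to 0.08) between the curcumin groups with and without CuCl2. IL6 was at 65.8, 63.6 and 62.6 TPM with curcumin, a difference of 0.07 (-0.10 to 0.24).

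**Figure D3:**
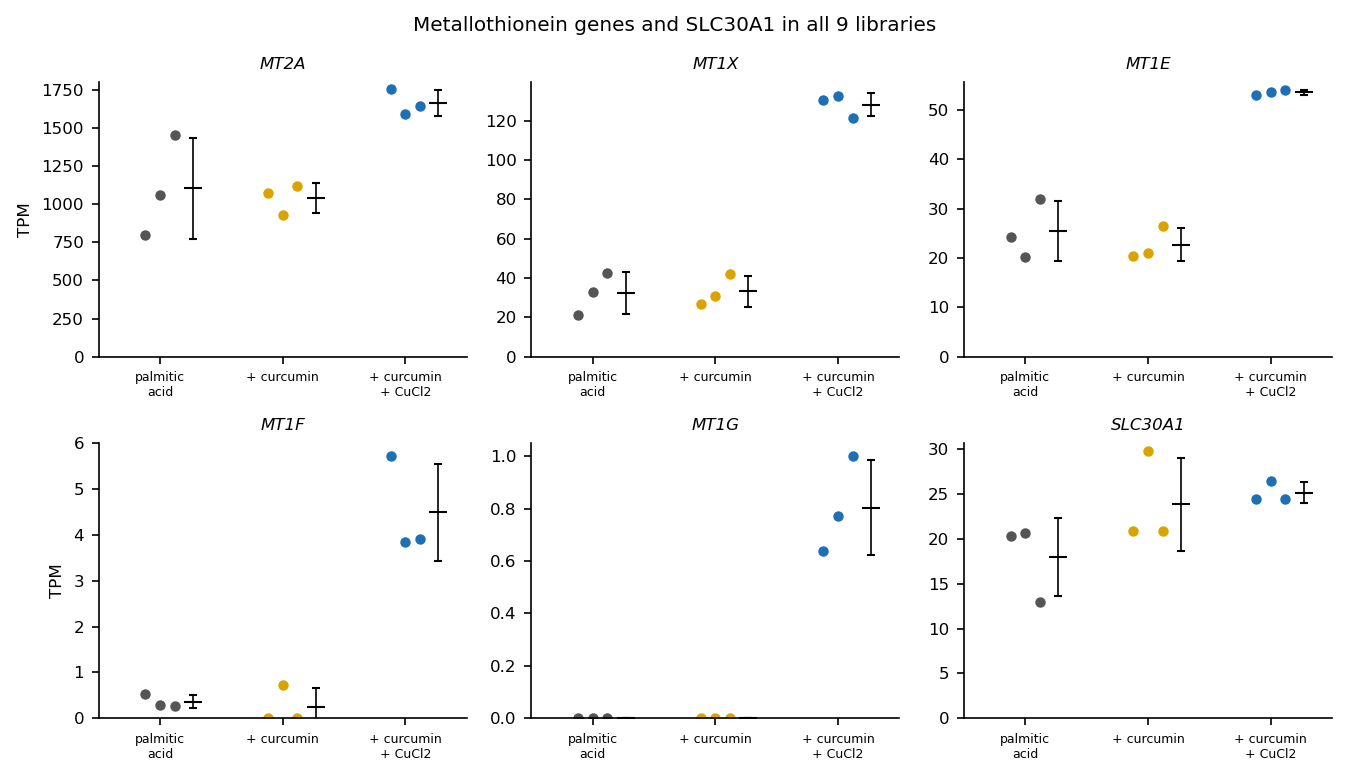
TPM (y axis, from 0) of 5 metallothionein genes and the zinc exporter SLC30A1 in each of the 9 libraries, grey for palmitic acid alone, yellow for added curcumin and blue for added curcumin with CuCl2, with the mean and SD at the side. The treated libraries of MT2A, MT1X, MT1E, MT1F and MT1G lie above all other libraries, whereas those of SLC30A1 overlap with the curcumin libraries.

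The promoters of MT1X and MT2A are printed because metal response elements, spelled TGCACNC or TGCGCNC on either strand, recur in them (RefSeq, GRCh38.p14, chr16:56682220-56682469 and chr16:56608334-56608583, plus strand, ending at the base before the start, matches in capitals). In MT1X the matches begin 150, 122, 78 and 53 bases before the start.
MT1X: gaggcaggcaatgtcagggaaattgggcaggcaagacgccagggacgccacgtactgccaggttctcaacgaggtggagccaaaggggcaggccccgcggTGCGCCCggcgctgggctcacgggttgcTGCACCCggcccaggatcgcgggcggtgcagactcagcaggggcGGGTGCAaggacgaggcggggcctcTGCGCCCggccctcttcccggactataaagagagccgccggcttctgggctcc
MT2A: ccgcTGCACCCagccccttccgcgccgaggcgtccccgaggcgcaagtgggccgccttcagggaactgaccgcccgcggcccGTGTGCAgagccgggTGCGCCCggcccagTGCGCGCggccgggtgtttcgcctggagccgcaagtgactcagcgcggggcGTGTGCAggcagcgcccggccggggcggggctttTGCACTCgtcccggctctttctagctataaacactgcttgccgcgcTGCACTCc
In MT2A there are 7, beginning 246, 168, 153, 139, 88, 54 and 8 bases before the start. At least 1 such match was present in 24.8% of all 34943 promoters, at least 4 in 0.369% and at least 7 in 0.0315%. MT1E, MT1F and HMOX1 have no entry in the promoter table.

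Few of the other genes that handle copper and zinc passed the test. Of 16 genes listed for copper transport and chaperones, the enzyme SOD1, copper-zinc superoxide dismutase, rose (375, 396 and 423 TPM to 544, 507 and 542 TPM, log2 fold change 0.42, adjusted p = 0.0157) and none fell. SOD1 is neither a transporter nor a chaperone, and no other member of the list passed. Its call is also counted in the list of glutathione and thioredoxin metabolism. The SOD1 call held in 13 of 20 alternatives and was lost without palmitic acid replicate 2 or any 1 treated library. SLC31A1, the copper importer CTR1, stood at 33, 33.6 and 23.1 TPM and 30.4, 33.2 and 31.6 TPM (95% confidence interval of the log2 fold change -0.22 to 0.42), and ATP7A, a copper-exporting ATPase, at 4.92, 4.84 and 2.92 TPM and 3.99, 5.06 and 3.87 TPM (-0.42 to 0.50). None of 16 zinc transporters passed in limma, with 1 higher and 1 lower at an unadjusted p under 0.05. SLC30A1, a zinc exporter driven by MTF1, was at 20.4, 20.6 and 12.9 TPM and 24.5, 26.4 and 24.4 TPM (log2 fold change 0.49, adjusted p = 0.277), and its curcumin libraries were at 20.8, 29.8 and 20.8 TPM. None of 17 genes of protein lipoylation and cuproptosis, a form of cell death tied to copper, passed in limma (1 lower and 0 higher at an unadjusted p under 0.05). The median of that list was 0.00, and FDX1, the ferredoxin at its centre, stood at 9.53, 11.3 and 9.44 TPM and 10.8, 11.4 and 12.2 TPM.

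Genes of lipid use held 2 of the largest rises. ANGPTL4, a secreted inhibitor of lipoprotein lipase and a target of PPAR receptors, went from 4.96, 3.28 and 3.74 TPM to 12.5, 15.5 and 13.5 TPM, a log2 fold change of 1.58 ± 0.15 (adjusted p = 0.00159). PLIN4, a coat protein of lipid droplets, went from 6.42, 6.26 and 5.9 TPM to 14.9, 17.6 and 16.1 TPM (1.26 ± 0.10, adjusted p = 0.000684). Both genes passed in all 20 alternatives, and in both every treated library was above every reference library. Of 31 fatty acid oxidation and PPAR target genes, 3 rose, ANGPTL4, the electron transfer flavoprotein ETFA (0.40) and the thiolase ACAA2 (0.30), and none fell, with 12 higher and 1 lower at an unadjusted p under 0.05. Calls of ETFA and ACAA2 held in 14 of 20 and 5 of 20 alternatives, and the list's count was 1 without palmitic acid replicate 1 or any 1 treated library. CPT1A, which loads fatty acids into mitochondria, was at 33.1, 34.5 and 26.2 TPM and 37.2, 44.3 and 41.4 TPM without passing (adjusted p = 0.209). Among 12 genes of lipid droplets and lipolysis, MGLL, which cleaves monoglycerides, fell from 34.7, 30.3 and 26.1 TPM to 18.4, 19.3 and 19.4 TPM (adjusted p = 0.0278). The MGLL call was lost without palmitic acid replicate 1 or 2, without any 1 treated library, with only the 6 libraries compared and with no filter (adjusted p up to 0.146). The droplet protein PLIN2 was under the filter, which is set on the mean over the 9 libraries, and was not tested. Of 23 genes of fatty acid and triglyceride synthesis only ME1 passed, in 9 of 20 alternatives, and FASN and SCD had log2 fold changes of -0.07 (-0.29 to 0.14) and 0.03 (-0.34 to 0.40). None of 25 cholesterol synthesis genes passed in limma (3 higher and 2 lower at an unadjusted p under 0.05).

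**Figure D4:**
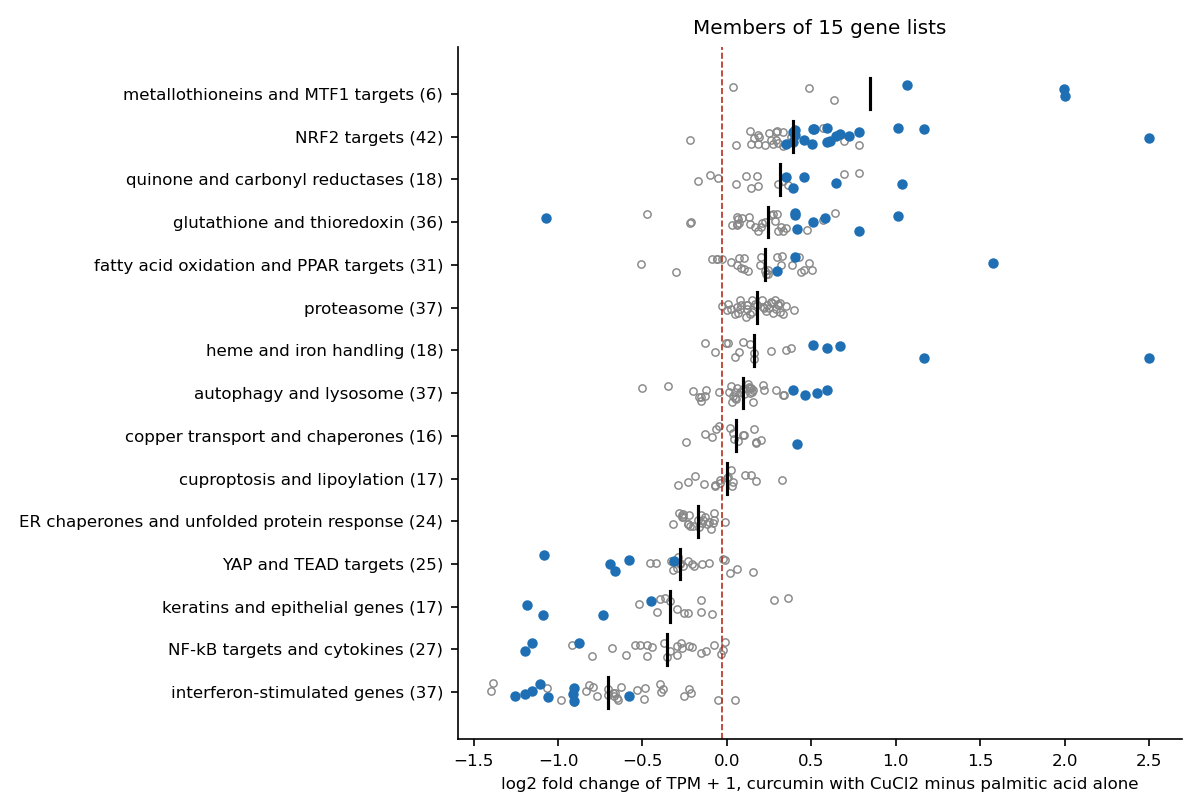
Log2 fold change of TPM + 1 (x axis) of each tested member of 15 gene lists (number of members in brackets), filled where adjusted p was under 0.05 and open where not, with the list median as a black bar and the median of all genes as a dashed line. NRF2 targets lie to the right of the line with 1 exception, and interferon-stimulated genes lie to its left with 1 exception.

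Cytokine mRNAs lay on the other side. IL6 (chromosome 7, 22725884 to 22732002, plus strand), the cytokine that drives the hepatic acute phase response, fell from 169, 155 and 143 TPM to 70.5, 66.8 and 64.3 TPM. The libraries of each group were close together and far from the other group, a log2 fold change of -1.20 ± 0.08 (adjusted p = 0.000143) and a level 2.31-fold lower. IL32, a pro-inflammatory cytokine, fell from 51.6, 48.9 and 62.5 TPM to 25.6, 20.5 and 25.4 TPM (-1.16 ± 0.15, adjusted p = 0.008). The chemokine CCL5 fell from 25.5, 25.9 and 26 TPM to 12.4, 12.9 and 15.7 TPM (-0.88, adjusted p = 0.0212), a call kept in 14 of 20 alternatives. These 3 were the members of the NF-kB list, of 27 tested, that fell, and none rose, against 0.900% of all genes falling. All 27 log2 fold changes were below 0, with a median of -0.36, and 14 did not overlap, against 10.3% of all genes. CCL2 (11.9, 8.02 and 9.7 TPM against 4.79, 3.1 and 6.8 TPM) and the feedback regulator TNFAIP3 (29.3, 25.1 and 15.9 TPM against 12.5, 15.9 and 13.2 TPM) did not pass, and the TNF and IL1B genes were under the filter. Without palmitic acid replicate 3 the count was 6, and without any 1 of the other 5 libraries it was 2. Of 14 complement genes C3, the central component, fell from 49.8, 44 and 49.3 TPM to 29.5, 27 and 27.9 TPM (adjusted p = 0.00796), a call lost without treated replicate 2 or 3 (up to 0.0544), and 3 of the 14 fell without palmitic acid replicate 3.

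The IL6 promoter carries 1 kappa B site of the form GGGANTTTCC, which begins 73 bases before the RefSeq start (GRCh38.p14, chr7:22727050-22727199, plus strand).
IL6: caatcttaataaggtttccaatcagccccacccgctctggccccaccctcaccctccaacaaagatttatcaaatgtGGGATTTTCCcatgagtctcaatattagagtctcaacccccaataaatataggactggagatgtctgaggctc
This pattern was present in 0.527% of all promoters and in 9 of the 19 NF-kB-list members with an entry (47.4%). The second share is again per gene, over any of its promoters.

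Interferon-stimulated genes had the lowest median of the 35 lists. Of 37 tested, 9 fell, against 0.900% of all genes, and none rose, 30 were lower at an unadjusted p under 0.05, and 36 of 37 log2 fold changes were negative, with a median of -0.70. The libraries of 28 members did not overlap, all lower with curcumin and CuCl2, as for 10.3% of all genes. IFIT1, which binds viral RNA lacking the host cap, fell from 59.2, 64.6 and 44.2 TPM to 22.3, 25.1 and 25.7 TPM (-1.15 ± 0.13, adjusted p = 0.00527). Its neighbour IFIT3 fell from 79.8, 73.7 and 58.2 TPM to 30.4, 33.2 and 32.4 TPM (-1.10 ± 0.11, adjusted p = 0.00266). OASL, an oligoadenylate synthetase-like protein, stood at 64.8, 65.4 and 67.4 TPM and 33.8, 37.5 and 32.9 TPM. IFIT1, IFIT3 and OASL passed in all 20 alternatives. The RNA sensors IFIH1 (MDA5) and DDX58 (RIG-I) fell, with log2 fold changes of -1.20 and -1.06, in 12 of 20 and 10 of 20 alternatives. IRF9, a DNA-binding factor of the interferon response, fell from 36.5, 60.6 and 40.3 TPM to 12.8, 20.1 and 23.1 TPM, at the edge of the threshold (adjusted p = 0.0496, kept in 6 of 20 alternatives, up to 0.179). IFIT2, IFI44 and IFITM3 completed the 9.

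The reference libraries differed among themselves in these genes. Palmitic acid replicate 2 was the highest of the 3 for IRF9, IFIH1 and DDX58, and replicate 3 the lowest for IFIT1, IFIT3, IFIH1 and DDX58. Without palmitic acid replicate 1, 2 or 3 the number of interferon-stimulated genes that fell was 4, 3 and 20, and without any 1 treated library it was 3. The list median lay between -0.54 and -0.85 in all alternatives. In MHC class I presentation, HLA-B fell from 149, 141 and 145 TPM to 94.3, 98.2 and 98 TPM (adjusted p = 0.0107) and the peptide transporter TAP1 from 26.5, 31.6 and 25.8 TPM to 17.4, 18.4 and 17.7 TPM (adjusted p = 0.0271), 2 of 16 members against 0.900% of all genes. None of the 16 fell without treated replicate 1, 2 or 3, 1 fell without palmitic acid replicate 1 or 2, and 5 fell without replicate 3. B2M, the light chain of these molecules, did not pass, with a log2 fold change of -0.22. In RNA from whole cultures, fewer cells with a transcript and less of it per cell cannot be told apart, and this holds for each gene described.

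The promoters of IFIT1 and IFIT3 are shown for their paired interferon-stimulated response elements, GAAANNGAAA on either strand (RefSeq, GRCh38.p14, chr10:89392473-89392622 and chr10:89332379-89332528, plus strand). In IFIT1 they begin 116 and 103 bases before the start, and in IFIT3 94 and 51 bases before it. RefSeq gives IFIT3 another start, with 2 matches 156 and 122 bases before it (chr10:89327747-89327996), which is not printed.
IFIT1: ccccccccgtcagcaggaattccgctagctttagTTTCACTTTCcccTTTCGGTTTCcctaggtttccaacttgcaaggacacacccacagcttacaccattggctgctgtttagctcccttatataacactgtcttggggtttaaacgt
IFIT3: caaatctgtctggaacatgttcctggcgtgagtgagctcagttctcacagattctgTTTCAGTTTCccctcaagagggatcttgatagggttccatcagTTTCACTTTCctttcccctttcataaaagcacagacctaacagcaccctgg
At least 1 match was present in 3.02% and at least 2 in 0.226% of all promoters, and 17 of the 28 list members with an entry (60.7%) held 1 or more. The share of list members is per gene, over any of its promoters.

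Some keratin genes fell as well. KRT17, a keratin of basal and stressed epithelia, went from 718, 717 and 811 TPM to 346, 299.5 and 341 TPM (-1.19 ± 0.10, adjusted p = 0.00123) and passed in all 20 alternatives. KRT8, a simple-epithelium keratin, fell from 1056, 1047 and 1127 TPM to 802, 767 and 796 TPM, and KRT80 and the mucin MUC1 fell, with log2 fold changes of -0.74 and -1.09. These were 4 of 17 keratin and epithelial genes tested, and none rose. The count was 4, 3 and 7 without palmitic acid replicate 1, 2 or 3 and 1, 2 and 1 without treated replicate 1, 2 or 3. The summed level of 6 epithelial markers, nearly all of it KRT7, KRT8 and KRT18, was 3310 to 3810 TPM with palmitic acid alone and 2640 to 2720 TPM with curcumin and CuCl2, and the part of cell composition in these falls was not tested. Of 25 YAP and TEAD target genes 5 fell and none rose. ANKRD1, a muscle ankyrin repeat protein, went from 67.2, 57.8 and 43.4 TPM to 25.6, 25 and 26.1 TPM (-1.08 ± 0.14, adjusted p = 0.00796), CCN1, a matricellular protein, from 262, 224 and 206 TPM to 151, 154 and 156 TPM, and IGFBP3, NUAK2 and GADD45A were the others. None of the 25 passed without treated replicate 1, 2 or 3, and 3, 1 and 6 fell without palmitic acid replicate 1, 2 or 3. Of 24 TGF-beta and matrix genes, TIMP4, a metalloproteinase inhibitor, rose from 2.95, 2.39 and 3.03 TPM to 4.78, 5.43 and 5.13 TPM (adjusted p = 0.0427, in 8 of 19 alternatives) and none fell, while 3 fell without palmitic acid replicate 3.

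Stress and growth genes changed in few members. In the list of ATF4 and CHOP targets, ASNS, asparagine synthetase (135, 135 and 124 TPM to 195, 189 and 184 TPM), PHGDH, the first enzyme of serine synthesis (207, 207 and 196 TPM to 291, 277 and 276 TPM), and CHAC1 rose, and PPP1R15A, a phosphatase subunit that ends the stress response, fell, of 32 tested. PHGDH passed in all 20 alternatives and PPP1R15A in 10 of 20, and 1 member of the list rose without treated replicate 3. DDIT3, the gene of CHOP, had a log2 fold change of 0.07 (-0.10 to 0.25). None of 24 endoplasmic reticulum chaperone and unfolded protein response genes passed in limma. All 24 values were below 0, with a median of -0.17. At an unadjusted p under 0.05, 11 were lower, against 13.5% of all genes in either direction. HSPA5, the chaperone BiP, was at 1837, 1777 and 1461 TPM and 1373, 1423 and 1406 TPM. Without palmitic acid replicate 3, 5 of the 24 fell. None of 26 heat shock genes passed in limma (1 higher and 2 lower at an unadjusted p under 0.05). For the proteasome none of 37 genes passed in limma, although 35 values were positive, with a median of 0.18. At an unadjusted p under 0.05, 19 were higher, against 13.5% of all genes in either direction. The libraries of 22 did not overlap, all higher, against 8.67% of all genes. Without palmitic acid replicate 3, 10 proteasome genes rose. The assembly factor POMP, at 191, 205 and 250.2 TPM and 314, 269 and 267 TPM, had the largest difference of that list, and its palmitic acid replicate 3 was the reference library nearest to the treated ones.

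MCM7, a subunit of the replicative helicase, fell from 205, 211 and 194 TPM to 106, 118 and 115 TPM (-0.84 ± 0.06, adjusted p = 0.000561), in all 20 alternatives, and was the 1 gene that fell of 31 for DNA replication. MCM6, of the same ring, had a log2 fold change of 0.25 (-0.10 to 0.61), and PCNA, the sliding clamp, rose by 0.34 (adjusted p = 0.0474, in 6 of 20 alternatives). None of 31 mitosis and cell cycle genes passed in limma (1 higher and 4 lower at an unadjusted p under 0.05). Of 24 immediate early genes, JUND, a subunit of the AP-1 factor, fell from 244, 201 and 225 TPM to 129, 141 and 122 TPM (-0.77 ± 0.09, adjusted p = 0.00594) and IER3, an early stress gene, also fell (log2 fold change -0.36). In that list 7 genes fell without palmitic acid replicate 3 and 1 without any 1 of the other 5 libraries. Of 25 p53 target and apoptosis genes, BBC3, the death protein PUMA (10.5, 11.5 and 10 TPM to 6.29, 6.32 and 5.52 TPM), the nuclease AEN and GADD45A fell and none rose. These calls held in 14 of 20, 10 of 20 and 8 of 20 alternatives, and the count was 0 without palmitic acid replicate 1 or 2, any 1 treated library or with only the 6 libraries compared, and 5 without palmitic acid replicate 3. CTSL and CTSD, lysosomal proteases, and GLA, the galactosidase deficient in Fabry disease, rose with SQSTM1 as 4 of 37 autophagy and lysosome genes, with CTSL at 346, 354 and 333 TPM and 485, 464 and 474 TPM. CTSL, GLA and SQSTM1 passed in all 20 alternatives and CTSD in 9 of 20, and 9 of the 37 values were negative. No gene of the hypoxia list (33 tested), the nuclear respiratory chain (38), mitochondrial DNA (15) or the multidrug exporters (8) passed in limma, and 6, 13, 0 and 3 of them were higher and 2, 0, 1 and 0 lower at an unadjusted p under 0.05. Leaving out palmitic acid replicate 3 gave 4 respiratory chain genes that rose and, in the hypoxia list, 1 that rose and 2 that fell. Of 7 aryl hydrocarbon receptor genes, the 1 that passed was NQO1, already counted as an NRF2 target. That list had a median of -0.22, with 1 higher and 2 lower at an unadjusted p under 0.05.

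Several of the largest falls belonged to no list. SYNC, syncoilin of the intermediate filaments, went from 11.4, 9.98 and 10.1 TPM to 4.49, 2.32 and 2.69 TPM, the largest fall among genes that met the naming rule (-1.50 ± 0.19, adjusted p = 0.00658). PLAAT2, a phospholipid acyltransferase, went from 17.1, 14.7 and 22.7 TPM to 6.36, 5.73 and 7.42 TPM (-1.34 ± 0.16, adjusted p = 0.00566), and MYO7B, a myosin of microvilli, from 7.66, 5.57 and 6.22 TPM to 2.08, 2.39 and 1.52 TPM. NEURL1, a ubiquitin ligase, fell from 32.6, 27.1 and 25.7 TPM to 11.4, 12 and 12 TPM. In all 4 the calls held in each alternative that tested them. Their groups were separate in every library, but the naming rule required this. ALPP, placental alkaline phosphatase, named after its values were seen, fell from 352, 299.8 and 289 TPM to 151, 159.8 and 154 TPM (adjusted p = 0.000561), and the long noncoding RNA H19, named likewise, from 289.9, 261 and 289.7 TPM to 179, 182 and 184 TPM. Among rises outside the lists, UNKL, a zinc finger protein, went from 25.5, 21.4 and 17.9 TPM to 37, 38 and 42.1 TPM (adjusted p = 0.0291, in 12 of 20 alternatives), and POR, the electron donor of cytochrome P450 enzymes, named after its values were seen, from 213, 215 and 223 TPM to 296, 290.2 and 288 TPM (adjusted p = 0.00658).

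**Figure D5:**
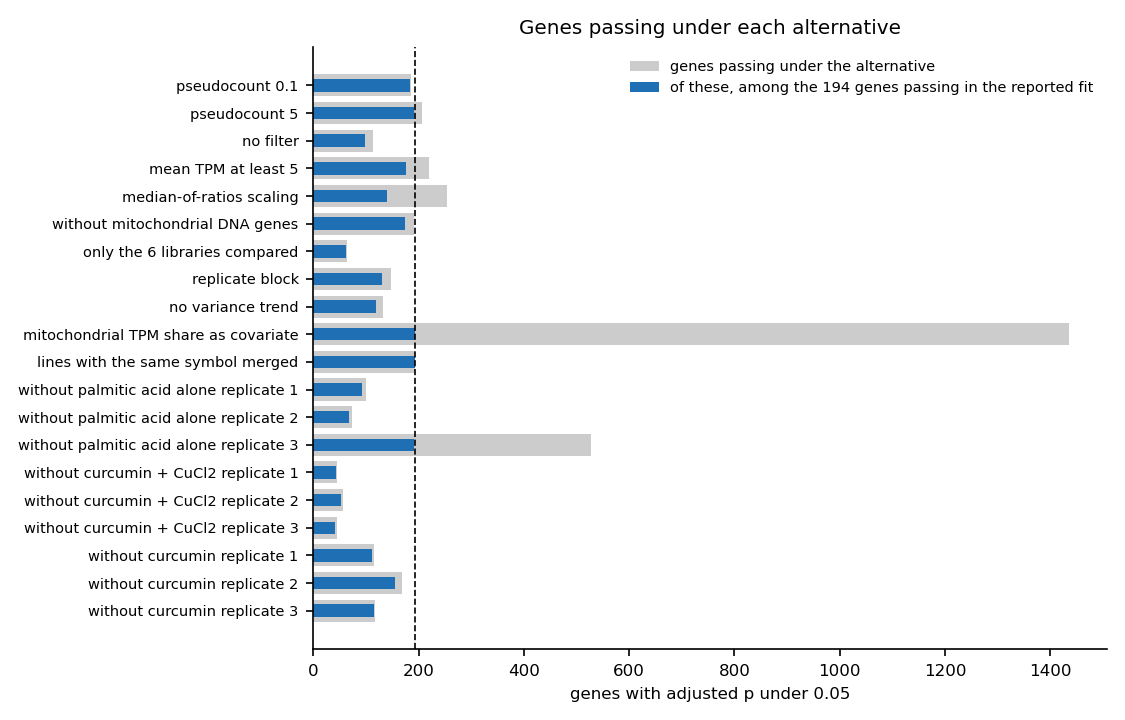
Number of genes with adjusted p under 0.05 (x axis) under each of 20 alternatives, with the grey bar for all such genes, the blue bar for those among the 194 of the reported fit and the dashed line at 194. The largest count, 1436, came with the mitochondrial share as a covariate, and the smallest, 46, without treated replicate 1 or 3.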

How the data were processed

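Libraries of polyadenylated RNA from 9 cell samples, 3 per treatment, were sequenced. The values are the TPM that the authors deposited as 1 table. TPM sets each library to the same total, so depth is unknown and no count model was used. The submitters' processing notes name HISAT2 2.1.0, RSEM 1.3.3 and GRCh38.p13. Their roles, the annotation and the strand setting are not given in the sources used here. Columns were assigned by name, and 0 other columns were present.

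Genes averaging 1 TPM or more across the 9 libraries were tested and hold 99.7% of the TPM. A mean per group was fitted to log2(TPM + 1) over all 9 libraries in limma 3.58.1 (R 4.3.3) with a variance trend, and two-sided p-values were adjusted by Benjamini-Hochberg over 13443 genes, at 0.05. Fold changes on this scale understate those of low genes. The labels do not say that replicates were separate cultures, so p-values measure only the spread among these samples, possibly a technical one.

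Named genes were up to 15 per direction with the largest change among genes that passed, had a symbol, reached 5 TPM in the higher group and did not overlap, the members of lists that passed with up to 3 more per list, and a set of pathway genes. The text prints some of these. Lists, members and genes were chosen with earlier results of these data known, so they are described by counts and medians without a test of the list. Where a symbol had several lines, the one with the highest mean stood for it in a list. Gene coordinates are from GENCODE 29 and promoters from RefSeq. The test was tried on simulated data. The 20 alternatives are in the closing section.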

Additional observations from a re-analysis of the deposited data

How the results depend on the processing

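Each alternative changed 1 choice. Against 194 passing genes (73 higher, 121 lower, 36 of at least 2-fold), fitting only the 6 libraries compared gave 65 (24 and 41), no filter 114 (65 lower), median-of-ratios scaling 111 higher, no variance trend 43 higher and the mitochondrial share as a covariate 1436 (761 and 675). The covariate raised the share of calls that were higher from 37.6% to 53%. A pseudocount of 5 left 12 genes at 2-fold. The number passing between curcumin with CuCl2 and curcumin, 0 in the reported fit, was 1 with a pseudocount of 5, 3 without a filter and 3 with the 6 libraries of that contrast. Leaving out 1 library gave 46 to 527 genes in all, 22 to 175 higher, 23 to 352 lower, 22 to 58 at 2-fold, and 0 to 4 in the contrast with curcumin. The widest count came without palmitic acid replicate 3, and the cause was not tested. No call of a gene that passed reversed, but the alternatives reuse the same libraries.

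Samples share only a replicate number: deviations of same-numbered samples from their group means correlated at -0.269 to 0.246 across genes, and for the 2 groups compared at -0.269, 0.0423 and -0.0513. With the replicate block 147 genes passed (55 higher, 92 lower), 131 of them among the 194. TPM gives no depth, so the smallest change that could have been detected in low genes is unknown.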
